A study of Mus musculus with 33 samples.

Results

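Interferon-stimulated genes (ISGs) were followed in sorted phagocytes of the inflamed mouse brain. The set held 44 genes of the 21950 in the deposited count table. It was given by symbol, and each symbol was matched to a single Ensembl gene. Of these, 37 are genes that type I interferon induces strongly and 7 are guanylate-binding protein (Gbp) and immunity-related GTPase (Irg) genes, which respond most to interferon-γ. The second class, called type II here, was Gbp2, Gbp3, Gbp5, Gbp7, Irgm1, Igtp and Iigp1. Many genes answer to both kinds of interferon, so the classes name the better-known inducer only.

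RNA was sequenced from 33 libraries, each of cells sorted from the brains of mice with an induced cortical multiple sclerosis model ("Cortical MS" in the labels), which all groups shared. The cells came from 3 gates: microglia labelled activated (CD45-high, CD11b-high, CCR2-), blood-derived phagocytes labelled activated (CD45-high, CD11b-high, CCR2+), and microglia labelled resting (CD45-int, CD11b-int). Treatment was vehicle or a CSF1R inhibitor, aimed at the growth factor receptor on which microglial survival depends, and each gate had 5 vehicle and 6 inhibitor libraries. The labels give no strain, age, sex, inhibitor name or dose. Whether each library came from its own animal is not given either, so p-values measure the spread between these libraries, which may be technical. No group from mice without the disease was analysed here, and "resting" names a gate of diseased brains.

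Interferons are cytokines that switch on a defence programme within the cell that senses them. Type I interferons (interferon-α and -β) bind the IFNAR receptor, whose kinases JAK1 and TYK2 lead to the ISGF3 complex, which holds STAT2 and IRF9 and binds interferon-stimulated response elements (ISRE) in promoters. Interferon-γ, made mainly by T and NK cells, binds the IFNGR receptor and acts at gamma-activated sequences (GAS), and it induces the Gbp and Irg GTPases that attack pathogen-containing vacuoles. In the brain, microglia show low ISG levels at rest and raise them in infection, ageing and demyelinating disease.

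Libraries held 11789803 to 22146705 counts. Pairwise correlations of log levels within a group were 0.965 to 0.986 in the resting and blood-derived gates and 0.734 to 0.959 in the activated gate, where 3 libraries (inhibitor replicates 1 and 2, vehicle replicate 2) had fewer than 11000 detected genes. The activated gate did not look like a pure microglial population. Its 8 microglial markers summed to 948 to 5088 CPM (counts scaled to the library total) against 19910 to 32456 in the resting gate and 2579 to 3917 in the blood-derived gate. Its 9 neutrophil markers summed to 17492 to 182735 CPM, against 377 to 587 in the blood-derived gate and 731 to 1007 in the resting gate, and its 7 NK cell markers to 417 to 14570 CPM, against 7.54 to 185 and 0.0532 to 4.09. The monocyte list summed to 1976 to 7305 CPM in the activated gate, 1766 to 7013 in the blood-derived gate and 11.6 to 84 in the resting gate, and the T cell list to 103 to 784, 12.7 to 142 and 1.54 to 6.61 CPM. "Activated microglia" is therefore used below only as the name of the gate. In sorted bulk RNA, a higher share of cells of some type and more RNA per cell cannot be told apart.

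Promoter windows of RefSeq (250 bases before to 50 after the annotated start, GRCm38.p6, written 5′ to 3′ on the gene's strand) were available for 33 members and are shown for 5 that stand for the patterns described below. Isg15 (chr4:156200769-156201068, minus strand) and Ifit1 (chr19:34640639-34640938, plus strand) are type I members that were highest in the activated gate. Slfn5 (chr11:82951852-82952151, plus strand) was high in both CD45-high gates. Gbp2 (chr3:142620413-142620712, plus strand) and Igtp (chr11:58199306-58199605, plus strand) are type II members. Capitals mark matches to the ISRE core GAAANNGAA or to the GAS motif TTCNNNGAA, searched on both strands; matches that overlap run together.
Isg15: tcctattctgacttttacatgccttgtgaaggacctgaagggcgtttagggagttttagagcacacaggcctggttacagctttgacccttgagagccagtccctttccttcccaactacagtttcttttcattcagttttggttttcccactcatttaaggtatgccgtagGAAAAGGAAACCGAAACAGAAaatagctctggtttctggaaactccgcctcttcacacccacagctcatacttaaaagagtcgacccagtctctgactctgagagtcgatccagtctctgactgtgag
Ifit1: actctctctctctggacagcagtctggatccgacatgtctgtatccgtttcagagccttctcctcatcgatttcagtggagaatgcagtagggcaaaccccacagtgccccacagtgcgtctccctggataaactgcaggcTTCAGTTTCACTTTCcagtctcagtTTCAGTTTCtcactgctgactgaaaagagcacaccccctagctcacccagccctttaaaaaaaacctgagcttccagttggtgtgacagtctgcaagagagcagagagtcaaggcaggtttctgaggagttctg
Slfn5: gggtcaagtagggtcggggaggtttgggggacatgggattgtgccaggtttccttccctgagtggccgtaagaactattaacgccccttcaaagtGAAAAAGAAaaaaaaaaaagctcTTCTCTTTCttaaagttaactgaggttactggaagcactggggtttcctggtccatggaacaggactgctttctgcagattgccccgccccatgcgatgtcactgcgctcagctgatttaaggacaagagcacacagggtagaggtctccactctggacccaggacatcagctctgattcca
Gbp2: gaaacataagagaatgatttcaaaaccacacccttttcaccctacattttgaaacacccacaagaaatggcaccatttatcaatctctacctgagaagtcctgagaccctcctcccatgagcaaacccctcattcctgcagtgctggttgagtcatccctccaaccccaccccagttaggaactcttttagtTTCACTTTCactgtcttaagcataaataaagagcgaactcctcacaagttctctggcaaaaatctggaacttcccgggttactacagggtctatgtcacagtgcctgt
Igtp: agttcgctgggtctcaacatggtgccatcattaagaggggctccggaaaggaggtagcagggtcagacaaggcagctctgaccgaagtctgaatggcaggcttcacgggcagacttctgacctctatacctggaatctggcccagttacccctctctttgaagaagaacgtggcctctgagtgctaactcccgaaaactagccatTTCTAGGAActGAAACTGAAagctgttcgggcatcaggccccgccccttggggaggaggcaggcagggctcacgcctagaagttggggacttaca
In Isg15, 3 overlapping ISRE core matches began 78, 72 and 66 bases before the start, in Ifit1 the 3 began 109, 103 and 84 bases before it, and in Slfn5 the 2 began 155 and 132 bases before it. Gbp2 had 1 ISRE core match, 58 bases before the start. In Igtp a GAS match 45 bases before the start lay near an ISRE core match at 34. Counted by gene, with a match in any window of the gene, the ISRE core was found for 15 of 27 type I members (55.6%) and 6 of 6 type II members (100.0%), against 9.76% of all 27025 genes with a window. Ifit2, Irf9, Isg20, Trim30a and Gbp3 had more than 1 window. Each window of Trim30a held a match and neither of Irf9 did. In Ifit2, Isg20 and Gbp3 only the most upstream window held a match to either motif. The GAS motif was found in 6 of 27 (22.2%) and 3 of 6 (50.0%), against 9.55%. These are matches of letters, not measured binding sites. The members without a window were Zbp1, Usp18, Oas2, Rtp4, Iigp1, Dhx58, Parp9, Ifi204, Mx1, Parp14 and Gvin1.

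Levels are given as CPM on library sizes scaled by the trimmed mean of M values (TMM). Differences are log2 fold changes with their standard error (SE) from edgeR's quasi-likelihood test, fitted over all genes of the 2 groups compared, and a gene was called where its Benjamini-Hochberg adjusted p over all genes tested was under 0.05. All 44 members passed the filter on low counts in each comparison. Mx1 and Ifi44 passed in the comparisons with the activated gate through the other group alone (Mx1 also in activated inhibitor against vehicle), and both were at 0 CPM in at least 1 activated library of each treatment. Reads of the Ifit, Oas, Gbp, Slfn and Ifi204 families, Trim30a and Gvin1 may be shared with near-identical copies, and Parp9 and Dtx3l overlap; how the counting treated such reads, and strand, is not given in the sources used here.

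**Figure D1:**
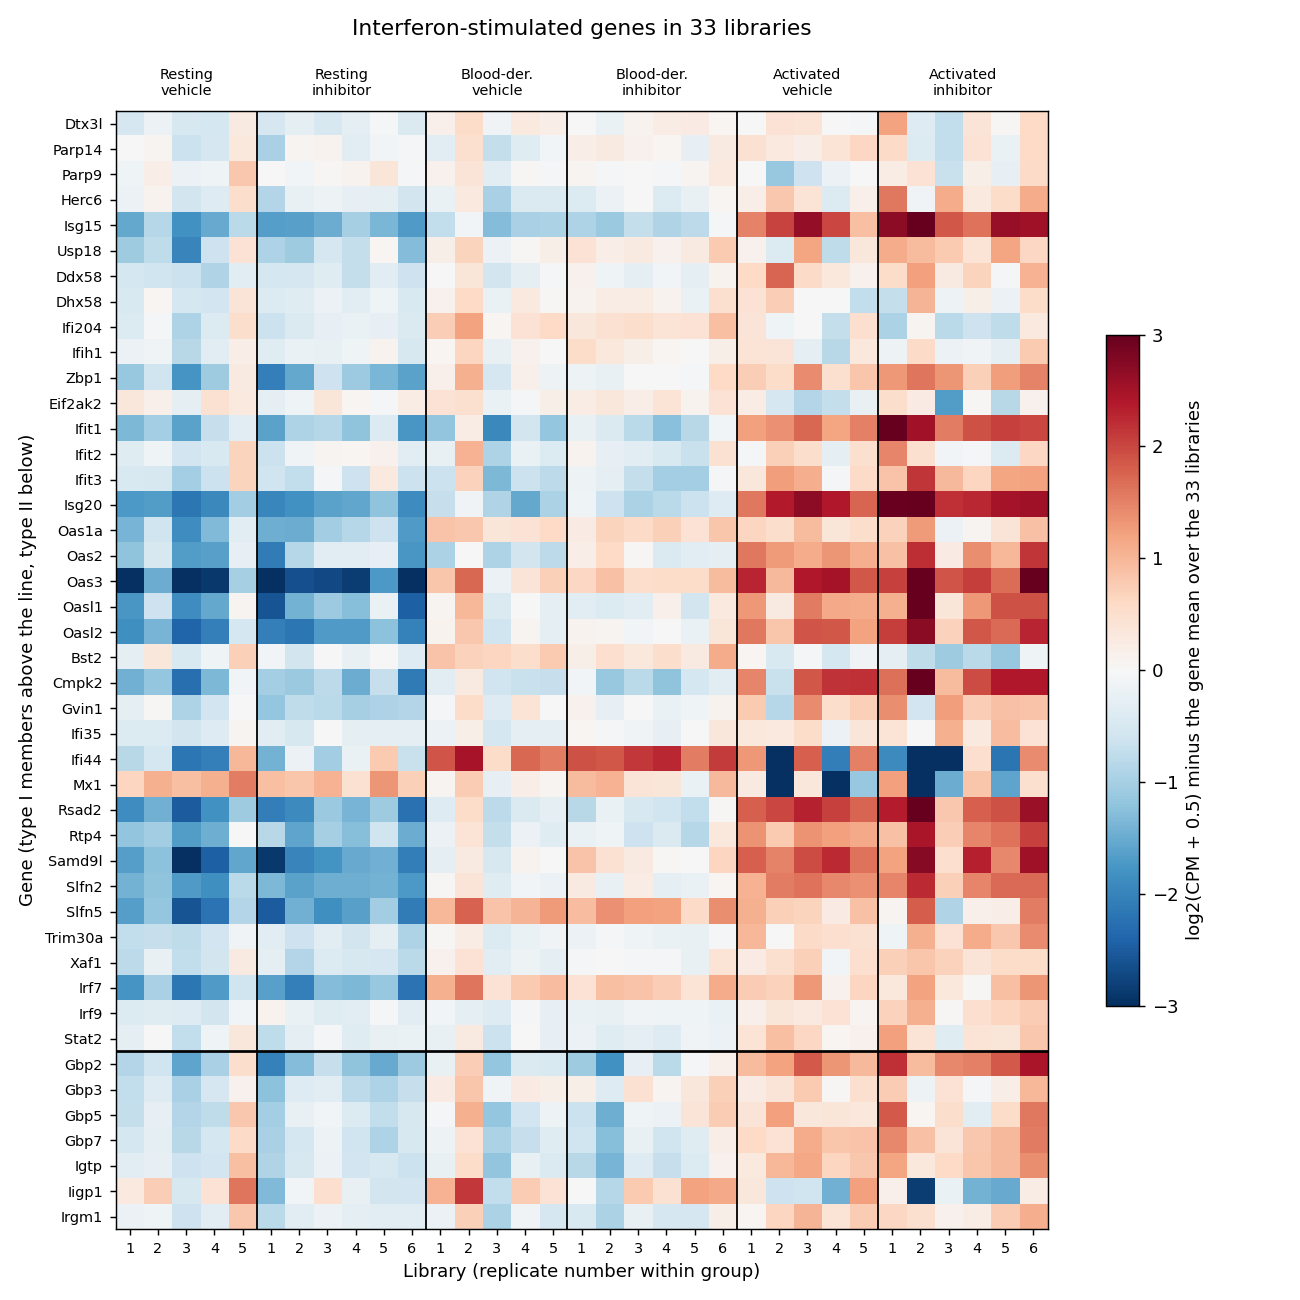
Level of each of the 44 genes (rows, type I above the line and type II below) in each of the 33 libraries (columns, by group and replicate number), as log2(CPM + 0.5) minus the gene's mean over all libraries; colours stop at 3 on either side. Most type I rows are red in the activated gate and blue in the resting gate, Irf7, Oas1a and Slfn5 are high in both CD45-high gates, and resting vehicle replicate 5 and blood-derived vehicle replicate 2 are raised across most rows.

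Per transcript length, on the authors' log2 FPKM scale, Slfn2 was the most abundant type I member in the activated gate (log2 FPKM 8.09 ± 0.22 with vehicle and 8.29 ± 0.55 with inhibitor, mean ± SD), followed by the OAS-like gene Oasl2 (7.85 ± 0.37 and 8.24 ± 0.82). In the blood-derived gate the first was Irf7 (7.55 ± 0.42 and 7.27 ± 0.29) and the second Bst2, and in the resting gate the first was Bst2 (6.46 ± 0.49 and 6.21 ± 0.24). Of the type II members, Gbp2 stood first in the activated gate (7.76 ± 0.36 and 8.28 ± 0.53) and Irgm1 first in the others. The leading type I member on this scale thus differed between the 3 gates.

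The mean over the 37 type I members, in log2(CPM + 0.5), was 6.40 to 7.05 in the activated vehicle libraries, 5.65 to 6.69 in the blood-derived vehicle libraries and 4.71 to 6.05 in the resting vehicle libraries. With inhibitor the ranges were 6.27 to 7.35, 5.94 to 6.44 and 4.91 to 5.63. Activated and resting libraries did not overlap in this mean in either treatment. Blood-derived libraries overlapped both other gates with vehicle and the activated gate alone with inhibitor. For the 7 type II members the ranges with vehicle were 7.46 to 7.96, 6.26 to 8.08 and 6.30 to 7.92, and with inhibitor 7.11 to 8.49, 6.0 to 7.62 and 5.97 to 7.0. The type II ranges overlapped in both treatments, except that activated and resting inhibitor libraries stayed apart.

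**Figure D2:**
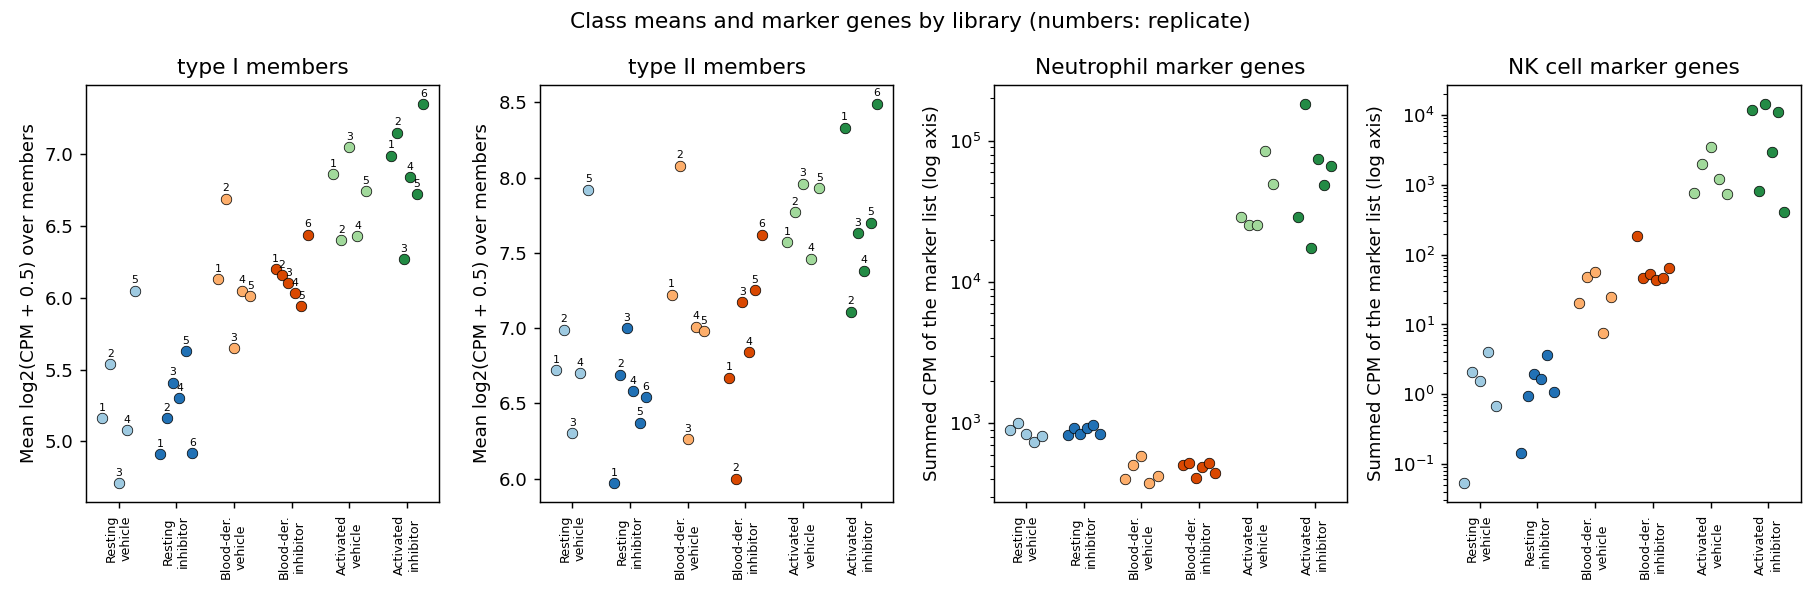
Left pair of panels: mean log2(CPM + 0.5) over the 37 type I and the 7 type II members in each library, numbered by replicate. Right pair of panels: summed CPM of the neutrophil and NK cell marker lists in the same libraries on a log axis. The activated libraries lie at 6.27 to 7.35 in the type I mean and carry 17492 to 182735 CPM of neutrophil markers, against at most 1007 elsewhere.

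The comparison of activated with resting microglia asks how the CD45-high, CCR2- gate differs from the CD45-int gate in ISG level. With vehicle, 21 of 37 type I members were higher in the activated gate and 0 lower, and 3 of 7 type II members were higher (Gbp2, Gbp3 and Gbp7) and 0 lower. Of all 12098 genes tested, 18.2% were called higher and 10.7% lower. With inhibitor, on separate libraries, 26 type I and 6 type II members were higher and 0 lower, against 22.1% and 11.2% of 12028 genes. The median log2 fold change was 1.09 (type I) and 0.83 (type II) with vehicle and 1.63 and 1.46 with inhibitor, and -0.10 and -0.01 over all genes. All 21 and all 3 members called with vehicle were also among the 26 and 6 called with inhibitor, which is 80.8% and 50.0% of the inhibitor calls. The neutrophil, NK cell, T cell, monocyte and microglial marker sums given above moved with this contrast, and their part in it was not tested.

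Among genes whose products bind or degrade RNA, 7 of 10 were higher with vehicle and 8 with inhibitor. Ifit1, which binds foreign RNA and blocks its translation, stood at 95.5, 104, 134, 91.1 and 115 CPM in the 5 activated vehicle libraries and at 15.4, 19.4, 12.8, 24.6 and 31.9 CPM in the 5 resting ones. With inhibitor it ran from 118 to 322 (median 165) CPM against 11.6 to 30.0 (median 18.9) CPM. Each activated library was above each resting one in both treatments, and the log2 fold change was 2.35 ± 0.25, adjusted p = 5.6e-05 with vehicle and 3.41 ± 0.31, adjusted p = 2.4e-06 with inhibitor. Oasl2, a relative of the 2′-5′ oligoadenylate synthetases, stood at 645, 386, 795, 784 and 500.0 CPM in activated and 60.1, 82.2, 40.6, 51.3 and 149 CPM in resting vehicle libraries, and at 350.0 to 1413 (median 842) against 47.3 to 91.8 (median 59.1) CPM with inhibitor. It too separated the gates completely (3.02 ± 0.38, adjusted p = 1.7e-04 and 3.87 ± 0.32, adjusted p = 1.1e-06). Isg20, an RNA exonuclease, had the smallest p-value of the inhibitor comparison among members, with mean levels of 86.9 ± 26.8 against 5.44 ± 1.92 CPM with vehicle and 116 ± 30.6 against 5.5 ± 1.2 CPM with inhibitor (mean ± SD; log2 fold change 3.97 ± 0.31, adjusted p = 8.0e-06 and 4.48 ± 0.23, adjusted p = 3.4e-08). The oligoadenylate synthetase Oas3 had the largest fitted change of the set (4.26 ± 0.65 and 5.56 ± 0.62), from resting means of 11.3 ± 9.63 and 6.62 ± 4.95 CPM. Ifit2 and Eif2ak2, which encodes the kinase PKR, were called in neither treatment.

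The ISG15 system conjugates the ubiquitin-like protein ISG15 to other proteins. Isg15 stood at 111, 162, 246, 159 and 73.9 CPM in the activated vehicle libraries and 13.2, 21.2, 10.7, 13.3 and 22.1 CPM in the resting ones, and at 122 to 445 (median 237) against 11.6 to 19.4 (median 13) CPM with inhibitor. The lowest activated library was above the highest resting one in each treatment, with log2 fold changes of 3.19 ± 0.34, adjusted p = 4.9e-05 and 4.17 ± 0.31, adjusted p = 5.1e-07. Usp18, which removes ISG15 and dampens IFNAR signalling, stood at 70.6, 48.4, 149, 38.1 and 82.5 CPM against 30.7, 38.3, 16.2, 42 and 87.3 CPM with vehicle, where the groups overlapped and no call was made (0.83 ± 0.46, adjusted p = 0.211). With inhibitor it stood at 86.2 to 147 (median 119) against 25.9 to 67.3 (median 36.6) CPM and was higher (1.63 ± 0.24, adjusted p = 1.4e-04). Herc6, the main ISG15 ligase of the mouse, was likewise called with inhibitor (1.33 ± 0.27, adjusted p = 0.00169) and not with vehicle (0.29 ± 0.23, adjusted p = 0.387).

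Of the 3 transcription factors, Irf7, which amplifies type I interferon production, separated the gates in both treatments. Its levels were 318, 306, 468, 205 and 296 CPM in activated and 54.9, 95.4, 41.6, 57.7 and 124 CPM in resting vehicle libraries, and 194 to 469 (median 294) against 40.1 to 84.8 (median 67.1) CPM with inhibitor (2.07 ± 0.31, adjusted p = 5.3e-04 and 2.41 ± 0.28, adjusted p = 1.9e-05). Irf9, the DNA-binding part of ISGF3, differed less (0.59 ± 0.13, adjusted p = 0.00557 and 0.92 ± 0.17, adjusted p = 1.0e-03). It separated the gates with vehicle, at 139 to 180 against 90.8 to 125 CPM. With inhibitor it overlapped, at 135 to 279 against 102 to 142 CPM. Stat2, its partner, stood at 181, 254, 208, 142 and 148 CPM against 111, 138, 81.4, 125 and 173 CPM with vehicle and overlapped between gates (0.53 ± 0.20, adjusted p = 0.0752), while with inhibitor it stood at 106 to 317 (median 181) against 80.0 to 132 (median 114) CPM and was called (0.92 ± 0.23, adjusted p = 0.00728).

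The 5 nucleic acid sensors were mixed. Zbp1, which senses Z-form nucleic acids and can trigger necroptosis, stood at 175, 153, 281, 145 and 187 CPM in activated and 47.3, 68.4, 30.2, 49.7 and 126 CPM in resting vehicle libraries and at 171 to 319 (median 262) against 24.7 to 67.9 (median 38) CPM with inhibitor. It did not overlap between gates (1.53 ± 0.35, adjusted p = 0.007 and 2.70 ± 0.25, adjusted p = 2.7e-06). Ddx58, which encodes the RNA sensor RIG-I, was also higher in both treatments (1.33 ± 0.26 and 1.26 ± 0.21). Ifih1, which encodes the RNA sensor MDA5, stood at 67.3, 65.6, 41.8, 27.8 and 62.9 CPM against 44.2, 46.3, 28.1, 39.6 and 57.2 CPM with vehicle and 40.6 to 86.1 (median 45.6) against 35.8 to 54.1 (median 43.5) CPM with inhibitor. Its groups overlapped and it was not called (0.27 ± 0.26, adjusted p = 0.487 and 0.44 ± 0.22, adjusted p = 0.146), nor were Dhx58 (LGP2) and the DNA sensor Ifi204.

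Of the 13 other antiviral effectors, 9 were higher with vehicle and 10 with inhibitor. Rsad2 encodes viperin, which makes a chain-terminating nucleotide. It stood at 167, 196, 241, 201 and 163 CPM in activated and 12.8, 17.5, 8.08, 13.4 and 22.8 CPM in resting vehicle libraries, and at 84.6 to 475 (median 215) against 9.84 to 22.8 (median 15.3) CPM with inhibitor, with no overlap (3.68 ± 0.27, adjusted p = 6.4e-06 and 3.98 ± 0.40, adjusted p = 6.7e-06). Slfn2, a schlafen protein needed for quiescence of mouse immune cells, had means of 515 ± 76.7 against 75.7 ± 22.5 CPM with vehicle (2.74 ± 0.21, adjusted p = 7.6e-06; with inhibitor 3.20 ± 0.23, adjusted p = 3.0e-07). Samd9l, an antiviral factor that restricts poxviruses, was higher by 3.75 ± 0.37, adjusted p = 3.1e-05 with vehicle. Bst2, or tetherin, which holds budding virions at the cell surface, was not called: it stood at 77.6, 54.1, 70.7, 51 and 68.5 CPM against 60.3, 93.6, 53.5, 67.7 and 122 CPM with vehicle and 33.4 to 67 (median 42.7) against 50.2 to 73.5 (median 66.3) CPM with inhibitor (-0.32 ± 0.24, adjusted p = 0.363 and -0.39 ± 0.21, adjusted p = 0.175). None of the 3 members of the ADP-ribosylation group (Parp9, Parp14 and Dtx3l) was called in either treatment.

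Of the type II members, Gbp2 was the one with the largest difference. It stood at 494, 591, 909, 644 and 500.0 CPM in activated and 139, 168, 85.1, 131 and 368 CPM in resting vehicle libraries, and at 491 to 1407 (median 822) against 62.2 to 158 (median 107) CPM with inhibitor. The gates did not overlap, and the log2 fold change was 1.79 ± 0.36, adjusted p = 0.00316 with vehicle and 3.15 ± 0.30, adjusted p = 3.7e-06 with inhibitor. Gbp3 with vehicle (0.84 ± 0.21, adjusted p = 0.0115) and Gbp7 with inhibitor (1.73 ± 0.22, adjusted p = 5.4e-05) had the next smallest p-values. Gbp5, which promotes inflammasome activation, stood at 101, 182, 96.9, 99.5 and 95.6 CPM against 46.7, 64.4, 41.3, 45.3 and 135 CPM with vehicle and 61 to 278 (median 112) against 37.5 to 72.9 (median 56.2) CPM with inhibitor, overlapping in both. It was called with inhibitor (1.46 ± 0.36, adjusted p = 0.0062) and not with vehicle (0.75 ± 0.33, adjusted p = 0.115).

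The 3 immunity-related GTPases act in the same defence, Irgm1 and Igtp as regulators on host membranes and Iigp1 as an effector on vacuoles. Igtp stood at 187, 304, 342, 239 and 267 CPM in activated and 123, 128, 99.8, 103 and 285 CPM in resting vehicle libraries, and at 190.0 to 402 (median 286) against 81.3 to 136 (median 106) CPM with inhibitor. Irgm1 stood at 231, 347, 455, 295 and 375 CPM against 197, 204, 144, 176 and 392 CPM with vehicle and 243 to 471 (median 326) against 126 to 197 (median 177) CPM with inhibitor. For each of these 2 genes the highest resting vehicle library, replicate 5, lay within the activated range; they were called with inhibitor (1.53 ± 0.20, adjusted p = 5.9e-05 and 1.03 ± 0.18, adjusted p = 6.7e-04) and not with vehicle (0.83 ± 0.29, adjusted p = 0.0538 and 0.59 ± 0.27, adjusted p = 0.131). Iigp1 was spread widely within each gate, at 92.7, 47.1, 48.5, 26.4 and 173 CPM against 89.8, 122, 51.9, 98.9 and 222 CPM with vehicle and 9.76 to 85.8 (median 45.2) against 29 to 104 (median 56) CPM with inhibitor. Its fitted difference was negative and not called in either treatment (-0.60 ± 0.51, adjusted p = 0.424 and -0.24 ± 0.47, adjusted p = 0.737). Without resting vehicle replicate 5, 26 type I and 6 type II members were called with vehicle, the added ones being Dtx3l, Gbp5, Ifit2, Ifit3, Igtp, Irgm1, Parp14 and Stat2. The share of all genes called in that fit was not set beside these counts.

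**Figure D3:**
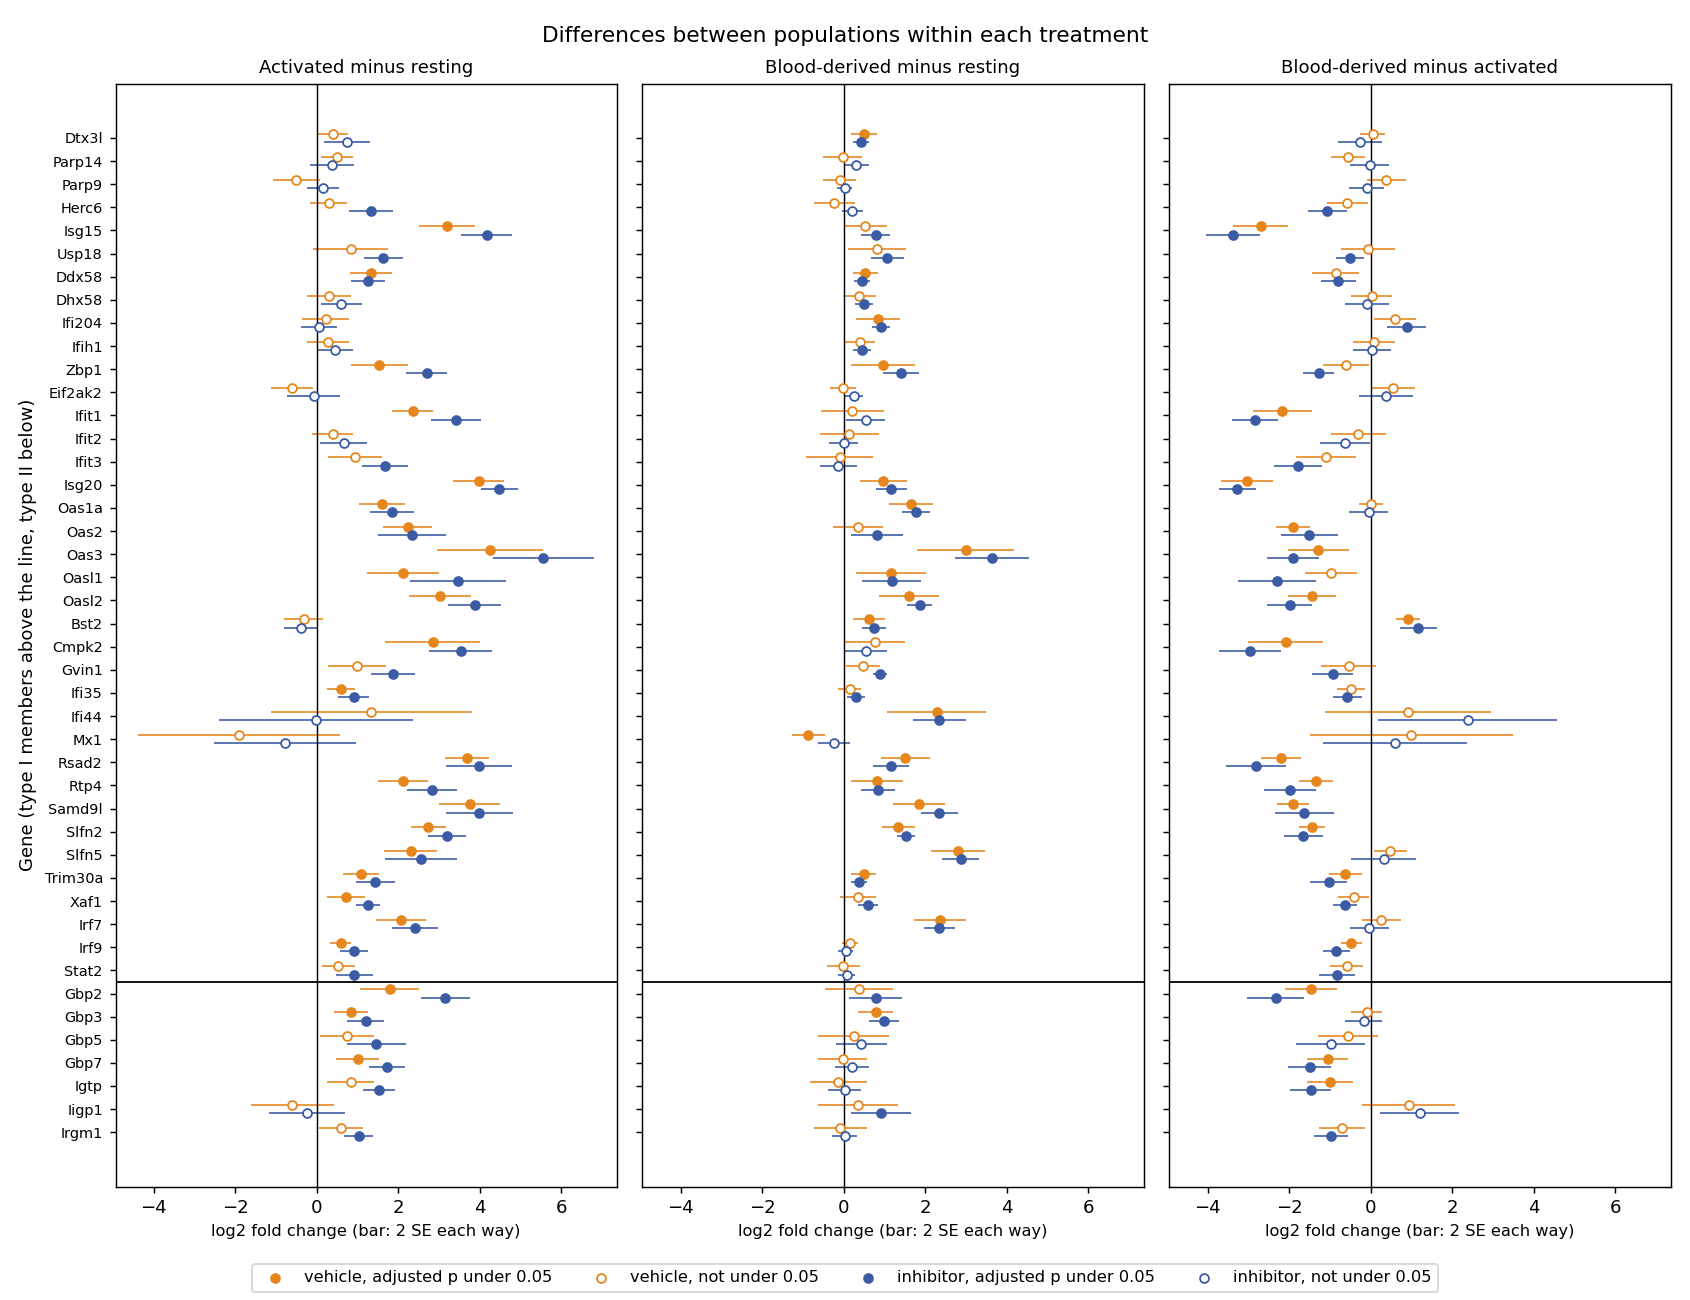
log2 fold change of each of the 44 genes between gates (horizontal axis; bars 2 SE each way), with vehicle in orange and inhibitor in blue, filled where the adjusted p is under 0.05. Between activated and resting microglia Isg20, Oas3, Samd9l, Rsad2, Isg15 and Oasl2 are among the genes above 3 in both treatments. Between blood-derived phagocytes and activated microglia Bst2 lies right of 0 while Isg20 and Isg15 lie beyond -2 on the left.

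The comparison of blood-derived phagocytes with resting microglia uses the same resting libraries and a gate without the neutrophil marker load, at 377 to 587 CPM against 731 to 1007. With vehicle, 18 type I members were higher and 1, Mx1, was lower; 1 type II member, Gbp3, was higher and 0 were lower. This contrast was broad: 30.9% of 12059 genes were called higher and 31.6% lower. With inhibitor, 26 type I and 3 type II members were higher and 0 lower, against 31.2% and 32.2% of 12022 genes. Median log2 fold changes were 0.53 (type I) and 0.24 (type II) with vehicle and 0.74 and 0.43 with inhibitor, with -0.04 and -0.05 over all genes. The 18 members called higher with vehicle were all called with inhibitor, where they made 69.2% of the calls. Without resting vehicle replicate 5, 26 type I members were called with vehicle instead of 19, Usp18, Isg15 and Irf9 among those added. Whether calls over all genes rose likewise in that fit was not examined.

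Slfn5, a schlafen that restrains interferon-driven transcription in human cells, and Irf7 had the smallest p-values with vehicle among members. Slfn5 had means of 185 ± 50.3 against 26.5 ± 12.6 CPM (2.81 ± 0.33, adjusted p = 2.6e-05). Irf7 stood at 395, 571, 256, 325 and 357 CPM in the 5 blood-derived vehicle libraries and 251 to 410.0 (median 327) CPM with inhibitor, above each resting library (2.36 ± 0.32, adjusted p = 7.5e-05 and 2.35 ± 0.19, adjusted p = 1.0e-07). Slfn2 (1.34 ± 0.20, adjusted p = 1.1e-04) and Oas1a (1.65 ± 0.27, adjusted p = 2.9e-04) followed. With inhibitor the 4 smallest p-values were those of Slfn2 (1.52 ± 0.11, adjusted p = 9.8e-09), Oasl2 (1.86 ± 0.15, adjusted p = 4.3e-08), Irf7 and Slfn5 (2.87 ± 0.23, adjusted p = 1.2e-07). Oasl2 stood at 230.0, 376, 142, 227 and 178 CPM with vehicle and 186 to 275 (median 222) CPM with inhibitor in the blood-derived gate.

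Ifit1 and Isg15, both far higher in the activated than in the resting gate, were closer to the resting than to the activated level here. Ifit1 stood at 17.3, 47.1, 10.2, 27.1 and 17.7 CPM with vehicle and 16.6 to 37.7 (median 26.1) CPM with inhibitor, within or near the resting range, and was not called (0.21 ± 0.39, adjusted p = 0.649 and 0.54 ± 0.24, adjusted p = 0.066). Isg15 stood at 23.1, 36.9, 15.5, 19.8 and 20.0 CPM with vehicle and 17.7 to 37.4 (median 21.5) CPM with inhibitor and was called with inhibitor alone (0.53 ± 0.26, adjusted p = 0.0921 and 0.78 ± 0.18, adjusted p = 0.00151). Rsad2 stood at 36.9, 70.6, 27.7, 35.7 and 39.7 and 26.7 to 49.1 (median 33) CPM, between the other gates, and was higher in both treatments (1.51 ± 0.30 and 1.16 ± 0.22). Stat2 stood at 117, 164, 86.4, 134 and 115 and 103 to 126 (median 115) CPM and did not differ by a call (-0.01 ± 0.20 and 0.07 ± 0.10). Mx1, a dynamin-like GTPase, had means of 13.8 ± 3.92 against 25.5 ± 5.96 CPM with vehicle (-0.87 ± 0.20, adjusted p = 0.00241) and 18.8 ± 5.89 against 22.6 ± 4.79 CPM with inhibitor (-0.24 ± 0.20, adjusted p = 0.318).

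Of the 5 sensors, 3 were called higher in the blood-derived gate with vehicle and 5 with inhibitor, beside 30.9% and 31.2% of all genes. Zbp1 stood at 116, 218, 74, 117 and 94.6 CPM with vehicle and 90.2 to 159 (median 102) CPM with inhibitor. The vehicle call (0.96 ± 0.39, adjusted p = 0.0485) was lost without any of 8 of the 10 libraries, where the adjusted p reached up to 0.139, while with inhibitor it was 1.40 ± 0.22, adjusted p = 8.2e-05. Ifih1 stood at 52.1, 79.3, 43.2, 55 and 50.6 and 50.6 to 73.2 (median 56.7) CPM (0.39 ± 0.19, adjusted p = 0.0908 and 0.45 ± 0.11, adjusted p = 0.00311). Usp18 stood at 73.7, 103, 57.2, 66.1 and 73.3 and 70.8 to 113 (median 78.3) CPM (0.82 ± 0.36, adjusted p = 0.07 and 1.07 ± 0.20, adjusted p = 4.0e-04). For both the inhibitor comparison alone gave a call, though its estimate differed from that with vehicle by less than the SE of the latter.

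Of the 7 type II members, 1 was called higher in the blood-derived than in the resting gate with vehicle and 3 with inhibitor. Of all genes, 30.9% and 31.2% were called higher. Igtp stood at 132, 226, 67.3, 132 and 113 CPM with vehicle and 57.7 to 167 (median 105) CPM with inhibitor, and Irgm1 at 196, 365, 116, 208 and 158 and 116 to 252 (median 160.0) CPM. Their fitted differences were -0.13 ± 0.35 and -0.08 ± 0.33 with vehicle and 0.02 ± 0.20 and 0.02 ± 0.15 with inhibitor. Gbp3 was called in both treatments, higher by 0.78 ± 0.22, adjusted p = 0.0084 with vehicle and 0.99 ± 0.18, adjusted p = 2.7e-04 with inhibitor. Gbp2 stood at 220.0, 430.0, 114, 189 and 186 CPM with vehicle and 72.6 to 283 (median 181) CPM with inhibitor, Gbp5 at 73.3, 161, 34.1, 51.4 and 68.8 and 27.5 to 130 (median 69.3) CPM, and Iigp1 at 150, 321, 43.6, 125 and 99.3 and 40.5 to 170.0 (median 114) CPM. Gbp2 and Iigp1 were called with inhibitor (0.78 ± 0.32, adjusted p = 0.0488 and 0.91 ± 0.37, adjusted p = 0.0461), and these calls were lost without any of 8 and 9 of the 12 libraries, where the adjusted p ran up to 0.109 and 0.0958, so that the count of 3 fell to 1 in 8 of those fits.

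Directly compared, the blood-derived gate had lower ISG levels than the activated gate for most members that differed. This comparison shares its libraries with both of those above. With vehicle, 1 type I member was higher (Bst2) and 13 were lower, and 0 type II members were higher and 3 lower (Gbp2, Gbp7 and Igtp). Of 11598 genes tested, 6.48% were called higher and 12.3% lower. With inhibitor, 2 type I members were higher (Bst2 and Ifi204) and 23 lower, and 0 type II members were higher and 4 lower, against 6.23% and 14% of 11614 genes. Median log2 fold changes were -0.55 (type I) and -0.70 (type II) with vehicle and -0.82 and -0.98 with inhibitor, with 0.03 and 0.01 over all genes. Without blood-derived vehicle replicate 2, 19 type I and 5 type II members were called with vehicle, Gbp5 and Irgm1 being the type II members added. Whether calls over all genes rose likewise in that fit was not examined.

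The smallest p-values with vehicle were those of Isg20 (-3.04 ± 0.32, adjusted p = 8.5e-05), Samd9l (-1.91 ± 0.20, adjusted p = 8.9e-05), Rsad2 (-2.20 ± 0.24, adjusted p = 1.3e-04) and Oas2 (-1.91 ± 0.21, adjusted p = 1.3e-04). With inhibitor they were those of Isg20 (-3.27 ± 0.23, adjusted p = 1.6e-06), Isg15 (-3.37 ± 0.33, adjusted p = 1.9e-05), Ifit1 (-2.84 ± 0.28, adjusted p = 2.0e-05) and the mitochondrial nucleotide kinase gene Cmpk2, a neighbour of Rsad2 on chromosome 12 (-2.96 ± 0.38, adjusted p = 1.2e-04). For Isg15, Ifit1 and Rsad2 the lowest activated library lay above the highest blood-derived one in each treatment. Among type II members Gbp2 led in both (-1.46 ± 0.32, adjusted p = 0.00802 and -2.33 ± 0.35, adjusted p = 3.7e-04), also without overlap, with Gbp7 second with vehicle (-1.05 ± 0.25, adjusted p = 0.0121) and Igtp second with inhibitor (-1.47 ± 0.25, adjusted p = 9.7e-04). The vehicle call of Igtp (-0.99 ± 0.28, adjusted p = 0.0278) was lost without any of 4 libraries (activated replicate 3 and blood-derived replicates 1, 4 and 5), with adjusted p up to 0.0782.

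Bst2 was the 1 member called higher in the blood-derived than in the activated gate in both treatments. Mean CPM of Ifi204, Ifi44, Slfn5, Eif2ak2, Mx1 and Iigp1 also lay in that direction in both. Bst2 stood at 135, 119, 115, 107 and 128 CPM in the blood-derived vehicle libraries and 83 to 160.0 (median 99) CPM with inhibitor, above each activated library of the same treatment. It was higher by 0.91 ± 0.15, adjusted p = 0.00141 with vehicle and 1.17 ± 0.23, adjusted p = 0.00231 with inhibitor against the activated gate, and by 0.62 ± 0.20, adjusted p = 0.0169 and 0.74 ± 0.15, adjusted p = 4.4e-04 against the resting gate. Ifi204 was higher with inhibitor against the activated gate (0.88 ± 0.24, adjusted p = 0.0195), and Ifi44 was higher than in the resting gate in both treatments (2.28 ± 0.61, adjusted p = 0.00766 and 2.35 ± 0.33, adjusted p = 3.2e-05), from 7.36 ± 7.72 to 35.4 ± 15.7 CPM with vehicle. In the activated gate Ifi44 ranged from 0 to 36.3 CPM with vehicle and 0 to 27.6 CPM with inhibitor, and it was not called there.

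Taken over the 3 comparisons of a treatment, which share libraries pairwise, the members sorted into a few patterns of calls. The share of all genes showing each pattern was not counted, so the pattern counts cannot be set against it. In single comparisons with vehicle, 18.2% of all genes were called higher in the activated and 30.9% in the blood-derived than in the resting gate. For blood-derived minus activated, 12.3% were called lower. With inhibitor these shares were 22.1%, 31.2% and 14%. With vehicle, 8 type I members were higher in the activated than in the blood-derived gate and higher there than in the resting gate (Isg20, Oasl2, Oas3, Rsad2, Rtp4, Trim30a, Samd9l and Slfn2), and with inhibitor 17 were. Some of these places rest on single libraries: without blood-derived vehicle replicate 1, Oas3, Trim30a and Rtp4 lost a call that the pattern needs, which leaves 5 of the 8. Over all libraries left out in turn, such calls were lost in 7 of 10 fits for Oas3 and in 8 for Trim30a and for Rtp4, and with inhibitor in 10 of 12 fits for Usp18, 8 for Ifi35 against the activated gate, 6 for Oas2 and 4 for Ddx58. Another 5 with vehicle (Ifit1, Isg15, Irf9, Oas2 and Cmpk2) and 6 with inhibitor (Ifit1, Ifit3, Irf9, Stat2, Cmpk2 and Herc6) were higher in the activated gate against each of the others, with no call between those; the vehicle call of Irf9 against the blood-derived gate was lost in 3 fits. Irf7, Oas1a and Slfn5 were higher in both CD45-high gates than in the resting gate in each treatment, with no call between the CD45-high gates; so was Gbp3 of the type II members. Ifit2, Parp9, Parp14 and Eif2ak2 were called in none of the 6 comparisons. A missing call does not show that 2 gates were equal: for Irf7 the blood-derived minus activated interval of 2 SE each way was -0.22 to 0.74 with vehicle and -0.51 to 0.46 with inhibitor.

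**Figure D4:**
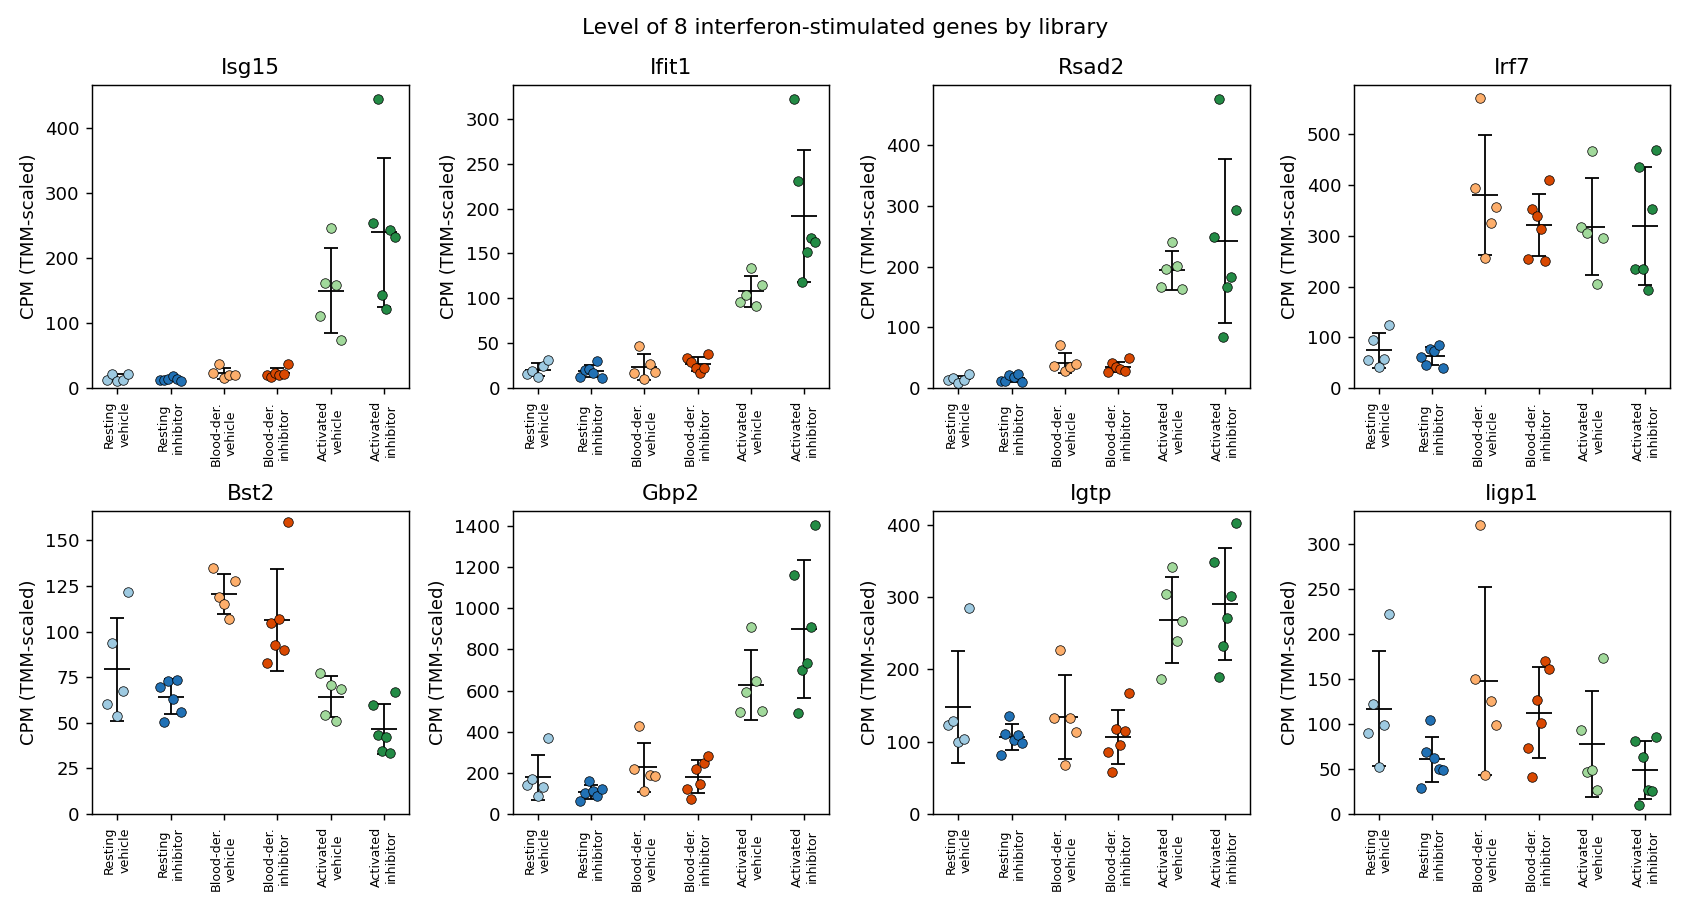
CPM of 8 genes in each library by group (points), with the mean and SD of the group (bar and whiskers); axes start at 0 and differ between panels. Isg15, Ifit1 and Rsad2 are highest in the activated gate, Irf7 is high in both CD45-high gates, Bst2 is highest in the blood-derived gate, and Igtp reaches 285 CPM in resting vehicle replicate 5 against 99.8 to 128 in the other 4 libraries.

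The inhibitor comparisons ask whether CSF1R inhibition changed ISG levels within a gate. In the activated gate 0 of 44 members were called by edgeR, where 0% of 11675 genes were, and 1 type I and 0 type II members had an unadjusted p under 0.05. In the blood-derived gate 0 members were called, against 0.274% (32) of 11670 genes, with 2 type I and 0 type II members at an unadjusted p under 0.05. In the resting gate 0 members were called, with 0% of 12226 genes, and 1 type I and 1 type II member at an unadjusted p under 0.05. DESeq2 and limma on log2 FPKM also called 0 members in each gate. Median log2 fold changes for type I and type II members were 0.28 and 0.13 for activated microglia, -0.02 and -0.26 for blood-derived phagocytes and -0.14 and -0.38 for resting microglia. Single vehicle libraries were raised across most members of both classes. Type II members exceeded the other libraries by a median log2 of 1.23 in resting replicate 5 and 1.05 in blood-derived replicate 2. The part of these libraries in the medians was not tested.

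The smallest p-value in the activated gate was that of Ifit1, at 0.84 ± 0.26, adjusted p = 0.999 by edgeR; its inhibitor range of 118 to 322 CPM overlapped the vehicle range of 91.1 to 134. In the blood-derived gate it was that of Oas2, at 0.62 ± 0.22, adjusted p = 0.205, and in the resting gate that of Gvin1, a very large interferon-induced GTPase, at -0.62 ± 0.15, adjusted p = 0.654. Of the type II members the smallest p-values belonged to Gbp2 in the activated gate (0.53 ± 0.28, adjusted p = 0.999), Igtp among the blood-derived phagocytes (-0.33 ± 0.31, adjusted p = 0.678) and Iigp1 in the resting gate (-0.96 ± 0.38, adjusted p = 0.876). The intervals of 2 SE each way were wide, for Isg15 -0.04 to 1.41 in the activated gate, -0.40 to 0.49 in the blood-derived gate and -0.62 to 0.18 in the resting gate. For Irgm1 they were -0.48 to 0.44, -0.82 to 0.29 and -0.81 to 0.06. A missing call therefore does not show that a member was unaffected.

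Whether a difference between gates itself depended on the inhibitor was tested as an interaction. For activated minus resting, 0 members were called, with 0% of 13172 genes, and the smallest type I and type II p-values were those of Zbp1 (1.08 ± 0.42, adjusted p = 0.665) and Gbp2 (1.25 ± 0.45, adjusted p = 0.643). For blood-derived minus resting, 0 members and 0% of 12921 genes were called (Mx1 0.64 ± 0.30, adjusted p = 0.72; Iigp1 0.57 ± 0.65, adjusted p = 0.905). For blood-derived minus activated, 0 members and 0% of 12568 genes were called (Oasl1 -1.28 ± 0.59, adjusted p = 0.888; Gbp2 -0.87 ± 0.48, adjusted p = 0.961). The larger number of calls with inhibitor than with vehicle was therefore not shown to be a different response.

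**Figure D5:**
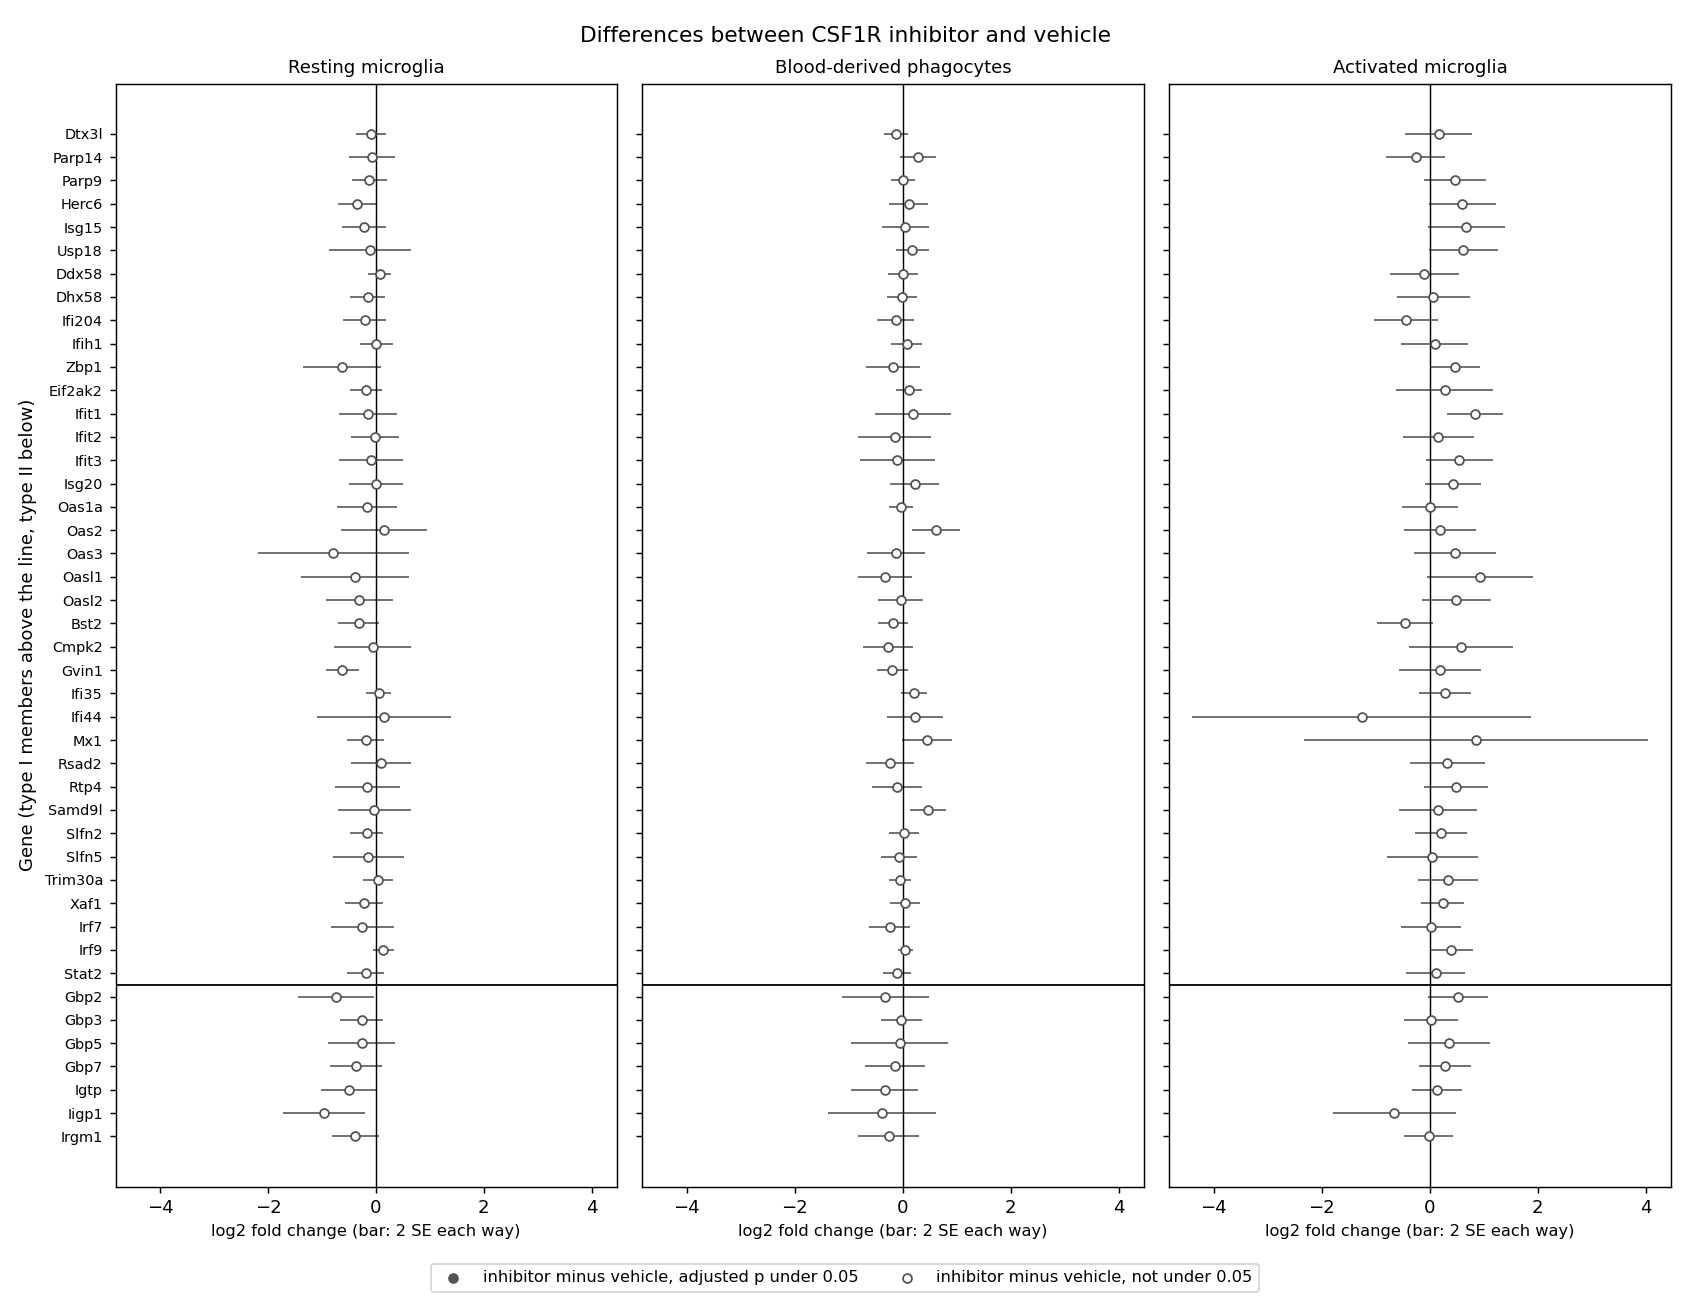
log2 fold change of each of the 44 genes between inhibitor and vehicle within each gate (horizontal axis; bars 2 SE each way). No gene has an adjusted p under 0.05, so all points are open; the widest bars are those of Ifi44 and Mx1 in the activated gate.

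In several groups a single library was the highest for most members of both classes. In the resting vehicle group replicate 5 was the highest of 5 libraries for 34 of 37 type I and 7 of 7 type II members, and replicate 3 the lowest for 30 and 7. Type I members in replicate 5 exceeded the median of the other 4 libraries by a median of 0.87 on the log2 scale and type II members by 1.23. In the blood-derived vehicle group replicate 2 was the highest for 34 and 7 members, by medians of 0.68 and 1.05, and replicate 3 the lowest for 33 and 7. That replicate 2 was also the highest of its group in monocyte markers (7013 CPM against 1779 to 3169), endothelial markers (106 against 54.4 to 59.3), T cell markers (50.7 against 12.7 to 26.1) and astrocyte markers (38.5 against 16.5 to 29.6), and the lowest in microglial (2775), dendritic (201) and plasmacytoid dendritic cell markers (69.5); their part in its ISG levels was not tested. The marker sums of resting vehicle replicate 5 lay inside the range of its group for microglia (24816 CPM), neutrophils (807 CPM), NK cells (0.688 CPM) and monocytes (32.1 CPM), while it was the highest for T cells (4.53 CPM against 1.74 to 3.57) and astrocytes (290.0 against 202 to 258) and the lowest for plasmacytoid dendritic cells (125 against 146 to 174). Among the blood-derived inhibitor libraries, replicate 6 was the highest for 24 of 37 type I and 6 of 7 type II members. Replicate 2 of that group was the lowest for 7 of 7 type II members. In the resting inhibitor group the classes parted: replicate 5 was the highest for 25 of 37 type I members while replicate 3 was the highest for 7 of 7 type II members. In the activated vehicle group no library stood out as clearly: replicate 3 was the highest for 16 of 37 type I and 5 of 7 type II members, and replicate 4 the lowest for 15 type I members. In the activated inhibitor group replicate 2 was the highest for 19 of 37 type I members and the lowest for 5. Replicate 6 was the highest for 8 type I and 6 of 7 type II members. The type I mean was highest in replicate 6, at 7.35 against 7.15 in replicate 2. Replicate 3 was the lowest for 18 type I members. Replicate 2 of that group carried the largest neutrophil marker sum (182735 CPM), and its part in these levels was not tested.

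Most interferon genes had no counts. Of 20 interferon genes listed, Ifne, Ifnab, Ifnl2, Ifnl3 and the Ifna genes other than Ifna2 were at 0 in all 33 libraries. Ifna2 was at 0 in 25 libraries and Ifnk in 22. How the counting treated reads that fit more than 1 Ifna gene is not given, so a 0 there may not mean an absent transcript. Ifnb1, encoding interferon-β, was found mainly in the resting gate, at 1.38, 7.91, 5.41, 8.79 and 1.78 CPM with vehicle and 2.05 to 12 CPM with inhibitor. It was at 0 in all 5 activated vehicle libraries and at most 0.124 CPM with inhibitor, and at most 0.673 CPM in the blood-derived gate. Against a floor of 3 counts over the activated vehicle group, the resting vehicle mean was at least 150-fold higher. Resting vehicle replicate 5, the library with the highest ISG levels of its group, had 1.78 CPM, the second lowest.

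Ifng, encoding interferon-γ, showed the opposite distribution. It stood at 17.3, 23.2, 60.8, 16.6 and 17.5 CPM in the activated vehicle libraries and 3.3 to 409 CPM with inhibitor, against 0.26 to 2.99 and 0.864 to 10.8 CPM in the blood-derived gate. It was at 0 in all 5 resting vehicle libraries and in 5 of 6 with inhibitor, so that the activated vehicle mean was at least 809-fold above a floor of 3 counts over the resting group. In the activated inhibitor libraries Ifng was high where NK and T cell markers were: replicates 1, 3 and 5 had 359, 409 and 255 CPM of Ifng with 11744, 14570 and 11121 CPM of NK markers and 713, 784 and 727 CPM of T cell markers. Replicate 4 had 38.5 CPM of Ifng with 3009 CPM of NK and 417 CPM of T cell markers. Replicates 2 and 6 had 3.3 and 6.69 CPM of Ifng with 813 and 417 CPM of NK and 140 and 127 CPM of T cell markers. The part of either cell type in these values was not tested. The type II means of replicates 1 to 6 were 8.33, 7.11, 7.63, 7.38, 7.7 and 8.49: the lowest was in the library with the lowest Ifng, replicate 2, and the highest in replicate 6, which had the next lowest Ifng.

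For the pathway genes outside the set, the shares of all genes called were 18.2% higher and 10.7% lower in activated against resting vehicle libraries, and 30.9% and 31.6% in blood-derived against resting ones. Of 8 receptor and signalling genes, 3 were higher and 1 lower in the activated than in the resting vehicle libraries, and 4 were higher and 1 lower in the blood-derived ones. The kinase gene Jak1 was higher in the activated gate (0.88 ± 0.12, adjusted p = 2.6e-04) and Jak2 in the blood-derived gate (1.12 ± 0.13, adjusted p = 9.8e-06). The type I receptor gene Ifnar1 was higher in the blood-derived gate (0.85 ± 0.10, adjusted p = 1.4e-05). The interferon-γ receptor gene Ifngr1 was lower in both (-1.0 ± 0.20, adjusted p = 0.00292 and -0.52 ± 0.10, adjusted p = 5.8e-04).

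Of 6 further interferon regulatory factors, 3 were higher and 2 lower in the activated than in the resting gate with vehicle, beside 18.2% and 10.7% of all genes. Irf1, which interferon-γ induces, was higher (1.12 ± 0.24, adjusted p = 0.00468) and was lower again in the blood-derived than in the activated gate (-1.68 ± 0.29, adjusted p = 0.00191). Irf5 and Irf8, factors of the myeloid lineage, were lower (-0.89 ± 0.12, adjusted p = 2.9e-04 and -0.61 ± 0.15, adjusted p = 0.00824). Of 10 genes of nucleic acid sensing, 3 were higher and 1 lower: Samhd1, which depletes nucleotides, and the kinase gene Ikbke were higher (2.47 ± 0.22, adjusted p = 1.5e-05 and 3.51 ± 0.56, adjusted p = 7.7e-04), and Tmem173, which encodes STING, was lower (-2.22 ± 0.31, adjusted p = 2.9e-04). The 3 and 1 of 10 are not far from the 18.2% and 10.7% of all genes. Tmem173 was lower in the blood-derived gate as well (-1.61 ± 0.10, adjusted p = 5.1e-08).

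Of 6 feedback inhibitors, 2 were higher and 1 lower in the activated gate with vehicle, beside 18.2% and 10.7% of all genes. Socs1, which blocks JAK kinases after interferon-γ, was higher (2.16 ± 0.57, adjusted p = 0.0148) and Socs3, which acts mainly on interleukin signalling, was lower (-0.89 ± 0.19, adjusted p = 0.00417). Of 12 tested among 13 other Gbp and Irg genes, 2 were higher and 0 lower, a share near the 18.2% of all genes called higher. These were Ifi47 (3.34 ± 0.45, adjusted p = 2.5e-04), also higher in the blood-derived gate (2.52 ± 0.46, adjusted p = 7.0e-04), and Tgtp1 (3.56 ± 0.53, adjusted p = 4.6e-04), whose reads may be shared with its near-identical copy Tgtp2.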

How the data were processed

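RNA of sorted brain cells was amplified with SMART-Seq V4 and made into libraries with Nextera XT, per the labels' protocols; the labels give a range of sorted cell numbers and differing amplification cycles without saying which library had which. The authors deposited expected counts per gene, of which 16.3% of values were not whole, and a table of log2 FPKM (27745 genes, of which 17130 are in both tables). The submitters' processing notes name bcl2fastq and GRCm38; aligner and counter are not given in the sources used here. Total counts were 11789803 to 22146705 per library.

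Expected counts were rounded and fitted with edgeR 4.0.16 (R 4.3.3; filterByExpr by group, TMM, robust quasi-likelihood test, Benjamini-Hochberg adjustment over all genes tested, threshold 0.05), on the groups of each comparison alone. Interactions used the 4 groups concerned. An SE is the log2 fold change divided by the square root of F. Scripts were tested on simulated data. The alternatives were DESeq2 1.42.0, RLE size factors, no filter, limma 3.58.1 on log2 FPKM, the replicate number as a block, leaving out each library, and leaving out 3 activated libraries with under 11000 genes. Genes were named by the smallest p in each class and comparison, with 15 described by library. Members and lists were chosen with earlier results of these data known. Promoter windows came from RefSeq (GRCm38.p6). Counting error is not the only error: PCR copies are not independent molecules, so floors of 3 counts cover counting error only.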

Additional observations from a re-analysis of the deposited data

Results flagged for a closer look

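Dixon's test was run 102 times, for 15 members and the 2 class means in each of 6 groups of 5 or 6 libraries. In 9 of them, all single members, 1 library lay far from the others of its group. Chance gives about 1 in 20 for a single test. The tests share libraries and are not independent, so the 9 cannot be read as an excess over that rate. In the resting vehicle group this was replicate 5 for 3 genes: Igtp at 285 CPM with the next library at 128, Irgm1 at 392 CPM with the next at 204, and Gbp5 at 135 CPM with the next at 64.4. In the blood-derived inhibitor group it was replicate 6 for Isg15 at 37.4 CPM (next 23.6), Zbp1 at 159 CPM (next 106) and Bst2 at 160.0 CPM (next 107). In the blood-derived vehicle group it was replicate 2 for Rsad2, at 70.6 CPM with the next at 39.7. In the activated vehicle group it was replicate 2 for Gbp5, at 182 CPM with the next at 101; this library had under 11000 detected genes. In the resting inhibitor group Irgm1 in replicate 1 was the lowest, at 126 CPM with the next at 175.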

How the results depend on the processing

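No result reversed under any alternative run. With all libraries kept, counts of members called stayed within 1.5 times of those reported except for type II members: blood-derived minus activated with vehicle gave 1 with the replicate block (3 without), and blood-derived minus resting with inhibitor gave 1 with no filter and 1 with limma on log2 FPKM (3 in the report). The cause was not tested. For activated minus resting, DESeq2 called 1 type I member lower in each treatment and limma called 1 lower with vehicle, where edgeR called 0. Leaving out each library in turn gave, with vehicle, 19 to 26 type I and 3 to 6 type II calls for activated minus resting, 15 to 26 and 1 to 1 for blood-derived minus resting, and 11 to 19 and 2 to 5 for blood-derived minus activated; the type II counts of 3 reached 6 without resting replicate 5 and 5 without blood-derived replicate 2. With inhibitor it gave 26 to 27 and 6 to 6, 24 to 28 and 1 to 4, and 22 to 25 and 4 to 4. Without the 3 activated libraries with few detected genes, activated minus resting gave 22 type I and 3 type II calls with vehicle and 26 and 6 with inhibitor, and blood-derived minus activated gave 17 and 3, and 24 and 4. Treatment and interaction comparisons gave 0 throughout. Shares of all genes called were set beside the counts of the main fits only. Same-numbered libraries showed little sign of pairing: correlations of their deviations ran from -0.192 to 0.443, with at most 1 pair over 0.1 in a comparison. Whether libraries with differing numbers shared a brain was not tested. With the replicate block the type I counts were 20, 24 and 12 with vehicle and 25, 25 and 23 with inhibitor, in the same order. Over single called members, DESeq2 kept 151 calls and lost 0, RLE 148 and 3, limma 140 and 11, no filter 143 and 8, and the replicate block 138 and 13.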
